A study of Mus musculus with 6 samples.

Results

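The genes described here are the receptors, ligands and transcriptional targets of the Notch pathway in PA6 cells, a murine stromal cell line used as a feeder layer for embryonic stem (ES) cells. All probes named on the array for 1 of 10 genes were taken: the targets HEY1, HEY2, HEYL and HES1, the ligands JAG1, JAG2 and DLL1, and the receptors NOTCH1, NOTCH2 and NOTCH3. These 10 genes, of 30854 gene names on the array, have 12 probes of 45281, with 2 probes each for HEY2 and NOTCH2. Confluent monolayers of pure PA6 cells, grown without ES cells, spent 3 h in serum-free medium. They received no growth factor (-GFs), recombinant FGF2 at 20 ng/ml or recombinant BMP4 at 10 ng/ml, the doses given by the sample labels (the methods give a lower dose of BMP4 for the co-cultures). Each of 2 biological replicates consisted of 1 well per condition, and the RNA of each of the 6 wells was read on its own Illumina bead array (MouseWG-6 v2.0). PA6 is a single established line, so that the replicates are cultures and not animals.

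Notch receptors are single-pass membrane proteins that are activated by Delta-like and Jagged ligands on the surface of a neighbouring cell. Binding leads to cleavage of the receptor, and its intracellular part moves to the nucleus, joins the DNA-binding protein RBPJ and switches on genes of the HES and HEY families, which encode repressors of the basic helix-loop-helix class. HEY1, HEY2 and HES1 are also known to respond to other signals, BMP among them, and Notch signals between stromal and neighbouring cells are best known from bone marrow and from the vessel wall.

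A probe is called detected on an array when its deposited detection p-value, which compares its brightness with that of negative control probes, is under 0.05. Levels are given as log2 of the normalized intensity, and a difference of 1 on this scale is a doubling. Brightness depends on the probe, so levels were compared between arrays and never between genes. A gene was tested with limma if some group had its probe detected on both arrays, which left 11872 genes, and p-values were adjusted over these genes by Benjamini-Hochberg. The methods of the study call a gene changed at an absolute log2 fold change over 1 with an adjusted p under 0.1. An adjusted p under 0.1 whatever the fold is named as such. A call said to hold or to be lost without an array refers to that adjusted p alone. The replicate number marks the 3 wells of one biological replicate, so values with it as a block in the model are given where they change the result. Both comparisons with -GFs share the same -GFs arrays.

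The median intensity of the arrays lay between 153.4 and 168.1, and 15509 to 16459 probes were detected per array. The immediate early gene EGR1 was higher with FGF2 by 4.19 on the log2 scale (SE 0.36, adjusted p = 0.00461), and the BMP target ID1 was higher with BMP4 by 2.77 (SE 0.16, adjusted p = 0.00943). All 7 stromal markers were detected on all 6 arrays, whereas 4 of 6 endothelial markers (PECAM1, CDH5, TIE1 and ICAM2), 3 of 4 pluripotency markers and 3 of 3 neural markers were detected on none. The endothelial markers TEK and KDR were detected on 6 and 4 arrays, and the pluripotency marker POU5F1 on 6. Of 3 haematopoietic markers, CD34 was detected on all 6 arrays, and PTPRC and CD68 on none. None of the marker genes that could be tested passed an adjusted p of 0.1 in either comparison with -GFs. The 3 arrays of replicate 2 stood apart from those of replicate 1 in adipocyte markers. The sum of 4 adipocyte markers on the log2 scale was 29.3 and 35.3 in -GFs replicates 1 and 2, 28.7 and 34.7 with FGF2, and 29.2 and 35.6 with BMP4. ADIPOQ, the gene of the fat cell hormone adiponectin, was detected on 3 arrays, those of replicate 2, and FABP4 on none. Each comparison between groups holds 1 array of each replicate number on both sides.

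Of the 10 genes, 6 passed the detection filter and were tested, namely HEY1, HEY2, HES1, JAG1, NOTCH1 and NOTCH3. HEYL, JAG2 and NOTCH2 were detected on none of the 6 arrays, and DLL1 on 2. No tested gene of the 6 was called in any comparison by both criteria. The share of all tested genes called was 3.53% for FGF2 against -GFs, 0.00842% for BMP4 against -GFs and 3.07% for FGF2 against BMP4. By the adjusted p alone, HEY1 was higher and HEY2 lower with FGF2 than in -GFs, and HEY2 was lower with FGF2 than with BMP4. HEY2 was detected on neither FGF2 array and entered the tests through the groups where it was higher, so its place here is a description.

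**Figure D1:**
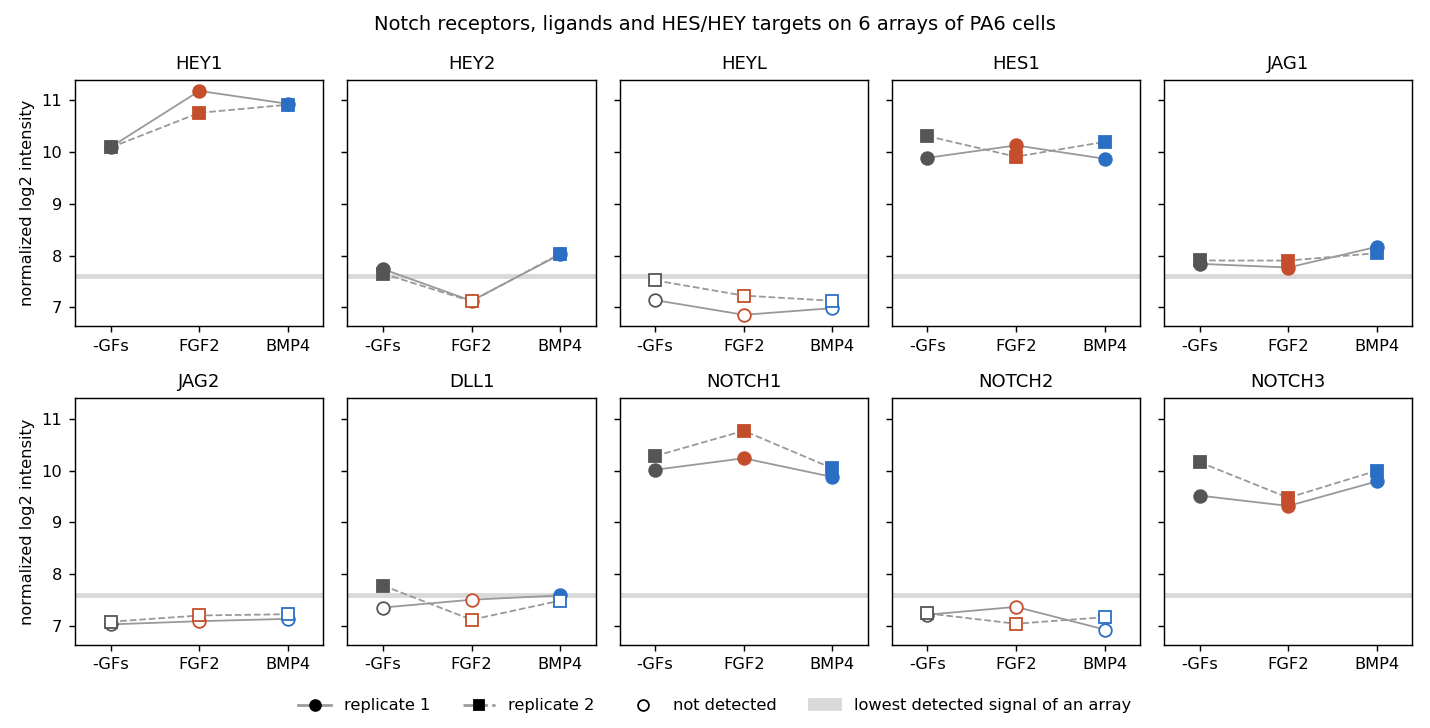
Normalized log2 intensity (vertical axis) of the 10 genes on each of the 6 arrays, by group (horizontal axis), with circles for replicate 1, squares for replicate 2, lines joining wells of one replicate and open symbols where the probe was not detected. For NOTCH2 and HEY2 the brighter of 2 probes is drawn, and the grey band spans the lowest detected signal of the arrays, 7.56 to 7.62. HEY1 lies at 10.09 and 10.10 in -GFs and at 10.76 or above on the other 4 arrays, while HEY2 falls below the band in FGF2 alone.

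HEY1, one of the best known direct targets of Notch and a repressor in the vessel wall and in bone, had the largest fitted difference from -GFs among the 6 tested genes with BMP4 and, with the spline normalization, with FGF2. With neqc that of HEY2 with FGF2 was larger (-1.21 beside 0.965 for HEY1). Its level (probe ILMN_2690596) was 10.10 and 10.09 in -GFs replicates 1 and 2, 11.18 and 10.76 with FGF2, and 10.93 and 10.92 with BMP4. All 4 treated arrays lay above both -GFs arrays, and the BMP4 arrays lay between those of FGF2. Before normalization the intensities were 1253 and 1025 in -GFs, 2332 and 1639 with FGF2, and 1790 and 1993 with BMP4.

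With FGF2, HEY1 rose 1.84-fold, a log2 fold change of 0.88 (SE 0.18, n = 2 arrays per group, limma adjusted p = 0.0394, and 0.000218 with the replicate block). The rise was 1.09 in replicate 1 and 0.67 in replicate 2 on the log2 scale. The call did not hold when either array of -GFs or of FGF2 was left out, with an adjusted p of 0.116 without -GFs replicate 1, 0.124 without -GFs replicate 2, 0.204 without FGF2 replicate 1 and 0.113 without FGF2 replicate 2. The log2 fold change stayed above 0 in each of these, from 0.67 to 1.09.

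With BMP4, the difference of HEY1 was almost as large, 0.83 on the log2 scale or 1.78-fold (SE 0.18), and nearly the same in both replicates (0.84 and 0.83). It exceeded in size the differences of 99.9% of the genes tested. It did not pass the adjustment over all genes (unadjusted p = 0.00247, adjusted p = 0.999 with limma), and with the replicate block it did (limma adjusted p = 0.0222). With limma's neqc background correction and the block it did not pass again (adjusted p = 0.448). The difference between FGF2 and BMP4 was 0.05 (95% confidence interval -0.38 to 0.47, limma adjusted p = 0.919), and the groups overlapped.

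The 3 genes whose log2 values followed those of HEY1 most closely over the 6 arrays were ZBTB2 (Pearson r = 0.984), OBFC2A (r = 0.970) and UNC5B (r = 0.967). The 6 points share 3 conditions and 2 cultures, so these r are descriptions of these arrays. UNC5B differed from -GFs by 1.66 with FGF2 and by 1.44 with BMP4 on the log2 scale, ZBTB2 by 0.47 and 0.39, and OBFC2A by 0.58 and 0.51.

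HEY2 encodes the relative of HEY1 that is best known from heart and arterial development, and its main probe was detected on both arrays of -GFs and of BMP4 and on neither of FGF2. The promoter of the gene is shown because the RBPJ motif occurs in it 2 times and in none of the other promoters of these genes that could be read. The window is 250 bases before to 30 bases after the annotated start in the RefSeq annotation of GRCm38.p6, chr10:30842754-30843033 on the minus strand, written 5′ to 3′ along the gene, with the RBPJ motif GTGGGAA in capitals on either strand.
HEY2 promoter: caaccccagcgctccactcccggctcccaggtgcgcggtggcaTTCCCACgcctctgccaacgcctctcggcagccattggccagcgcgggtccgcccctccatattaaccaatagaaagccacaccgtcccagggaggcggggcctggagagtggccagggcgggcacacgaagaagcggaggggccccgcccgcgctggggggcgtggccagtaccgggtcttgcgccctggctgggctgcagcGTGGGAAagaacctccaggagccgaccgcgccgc

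The first capitals, read on the opposite strand, begin at position -207 and the second, read along the gene, at position -4 from the start, with 196 bases between them. The window is rich in G and C, at 71.43% of its bases. The motifs were searched in windows of 300 bases, which end later than the stretch printed. GTGGGAA on either strand was found in 2097 of 32851 such RefSeq mouse promoters (6.383%), and in 84 of them (0.2557%) at least 2 times. Promoters of 7 of the 10 genes could be matched, those of HEY2, JAG1, JAG2, DLL1, NOTCH1, NOTCH2 and NOTCH3, and HEY2 was the single gene of the 7 with the motif. CACGTG, an E-box that HEY proteins can bind, occurred in 0 of the 7 and in 7.15% of all promoters. GGCGCC, a motif of the SMAD proteins that carry BMP signals, occurred in 2 of the 7 (HEY2, past the end of the stretch printed above, and DLL1) and in 11.87% of all promoters. HES5, a Notch target known from the nervous system, also had 2 copies of GTGGGAA, and none of its 2 probes passed the filter. A match describes letters in a window and is no binding site.

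The HEY2 probe that passed the filter (ILMN_2657207) read 7.74 and 7.65 in -GFs replicates 1 and 2, 7.13 and 7.12 with FGF2, and 8.02 and 8.04 with BMP4. The 3 groups did not overlap, with FGF2 lowest and BMP4 highest. The detection p-values were 0.0107 and 0.0417 in -GFs, 0.568 and 0.572 with FGF2, and 0.00214 and 0.00641 with BMP4, so the probe was not above background on either FGF2 array and had only an upper bound there. It passed the filter through -GFs and BMP4, where it was higher, so its place among the genes counted with FGF2 is a description.

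HEY2 fell with FGF2 by 0.58 on the log2 scale (SE 0.14, limma adjusted p = 0.0612, and 0.00398 with the replicate block), by 0.61 in replicate 1 and 0.54 in replicate 2. Taken against the lowest detected signal of the FGF2 arrays, the level in -GFs was at least 1.08-fold higher. Against BMP4 the difference was larger. HEY2 was lower with FGF2 by 0.91 (log2 fold change -0.91, SE 0.14, limma adjusted p = 0.0207, and 8.68e-05 with the block), and the BMP4 level was at least 1.36-fold higher. With BMP4 against -GFs the log2 difference was 0.33 (95% confidence interval 0.00 to 0.66), and it did not pass (limma adjusted p = 0.999, and 0.604 with the block).

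The call against -GFs was lost without either array of -GFs or of FGF2 (adjusted p = 0.173 without -GFs replicate 1, 0.146 without -GFs replicate 2, 0.249 without FGF2 replicate 1 and 0.292 without FGF2 replicate 2). That against BMP4 was lost without either array of FGF2 or BMP4 (adjusted p = 0.154, 0.188, 0.107 and 0.109 without FGF2 replicates 1 and 2 and BMP4 replicates 1 and 2). With neqc, which subtracts the background of the negative controls, the HEY2 differences were -1.21 against -GFs (limma adjusted p = 0.0341) and -1.97 against BMP4 (adjusted p = 0.0123), and both passed the fold criterion too. As HEY2 was undetected on both FGF2 arrays, all these results are descriptions, and only the bounds given above hold. A second HEY2 probe (ILMN_2657210) read 7.33 and 7.28 in -GFs, 7.26 and 7.23 with FGF2, and 7.84 and 7.54 with BMP4. It was detected on 1 array, BMP4 replicate 1, and both BMP4 arrays lay above the other 4.

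HES1, the most widely used Notch target and a gene whose expression oscillates in many cells, was detected on all 6 arrays. Its level was 9.89 and 10.31 in -GFs replicates 1 and 2, 10.13 and 9.91 with FGF2, and 9.87 and 10.20 with BMP4. The 3 groups overlapped. The log2 fold change was -0.08 with FGF2 (95% confidence interval -0.57 to 0.41, limma adjusted p = 0.856) and -0.06 with BMP4 (-0.56 to 0.43, adjusted p = 0.999). The pairs pointed in opposite directions with FGF2, 0.24 in replicate 1 and -0.40 in replicate 2. These intervals still hold differences as large as -0.57 and -0.56.

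HEYL, the remaining HEY gene, known from smooth muscle, was not detected. Its level was 7.14 and 7.52 in -GFs, 6.86 and 7.23 with FGF2, and 6.98 and 7.13 with BMP4, with detection p-values from 0.0865 to 0.957. Of 5 smooth muscle or pericyte markers, MYH11 and RGS5 were likewise detected on no array. The others were detected, TAGLN on all 6 arrays, DES on 5 and ACTA2, which myofibroblasts also express, on all 6.

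Among the receptors, NOTCH1 and NOTCH3 were detected on all 6 arrays. NOTCH1, the receptor of most blood and vessel lineages, read 10.01 and 10.28 in -GFs replicates 1 and 2, 10.24 and 10.77 with FGF2, and 9.88 and 10.04 with BMP4. It was highest with FGF2 and lowest with BMP4 in both replicates, but the FGF2 and -GFs arrays overlapped.

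Its log2 fold change with FGF2 was 0.36 (SE 0.22, limma adjusted p = 0.377, and 0.0699 with the replicate block but 0.164 with neqc and the block), and with BMP4 -0.19 (95% confidence interval -0.70 to 0.32, adjusted p = 0.999). Between FGF2 and BMP4 it was 0.54 (SE 0.22, limma adjusted p = 0.211, and 0.00896 with the block), with no overlap of the groups. The differences in the pairs were 0.36 in replicate 1 and 0.73 in replicate 2. The value against -GFs depended on 1 array, being 0.62 without FGF2 replicate 1 and 0.09 without FGF2 replicate 2.

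NOTCH3, the receptor typical of pericytes and smooth muscle, was lowest with FGF2 in both replicates. Its level was 9.52 and 10.16 in -GFs replicates 1 and 2, 9.32 and 9.47 with FGF2, and 9.79 and 10.00 with BMP4. Both FGF2 arrays lay below the other 4 arrays, while -GFs and BMP4 overlapped.

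The log2 fold change of NOTCH3 was -0.44 with FGF2 (SE 0.23, limma adjusted p = 0.307, and 0.0326 with the replicate block but 0.107 with neqc and the block), 0.06 with BMP4 (95% confidence interval -0.50 to 0.61) and -0.50 for FGF2 against BMP4 (SE 0.23, adjusted p = 0.280, and 0.0199 with the block). In the pairs the difference with FGF2 was -0.20 in replicate 1 and -0.69 in replicate 2. Without -GFs replicate 2 it was -0.12 and without -GFs replicate 1 it was -0.77, so the size depended on 1 array. NOTCH1 and NOTCH3 were both higher in replicate 2 than in replicate 1 in all 3 groups, by 0.27, 0.53 and 0.17 for NOTCH1 and by 0.65, 0.16 and 0.21 for NOTCH3 in -GFs, FGF2 and BMP4. The adipocyte markers ADIPOQ, LPL and PLIN moved the same way between the replicates in all 3 groups. FABP4, detected on no array, did not with BMP4 (6.92 and 6.84 in replicates 1 and 2). The part of adipocyte markers in these differences was not tested. In bulk RNA, fewer cells of a type and less RNA per cell cannot be told apart.

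NOTCH2 was not detected with either of its probes, which read 6.97 to 7.21 and 6.93 to 7.37 over the 6 arrays. An undetected probe gives only an upper bound on the level, and it does not show that the gene was silent.

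JAG1, the ligand that stromal cells are best known to present, was detected on all 6 arrays at a level not far above background. It read 7.84 and 7.91 in -GFs replicates 1 and 2, 7.77 and 7.90 with FGF2, and 8.17 and 8.05 with BMP4. Both BMP4 arrays lay above the other 4. The log2 fold change was 0.24 with BMP4 (95% confidence interval -0.11 to 0.58, limma adjusted p = 0.999, and 0.796 with the block) and -0.04 with FGF2 (-0.38 to 0.31, adjusted p = 0.907). FGF2 against BMP4 gave -0.27 (limma adjusted p = 0.344, and 0.165 with the block). With neqc this difference was -0.58 (adjusted p = 0.209), and with neqc and the block it passed (adjusted p = 0.0880).

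JAG2 lay between 7.03 and 7.22 and was detected on no array. DLL1, the Delta-like ligand among the 10 genes, read 7.35 and 7.78 in -GFs, 7.50 and 7.12 with FGF2, and 7.59 and 7.49 with BMP4. It was detected on -GFs replicate 2 and BMP4 replicate 1, and was not tested because neither group had it on both arrays.

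**Figure D2:**
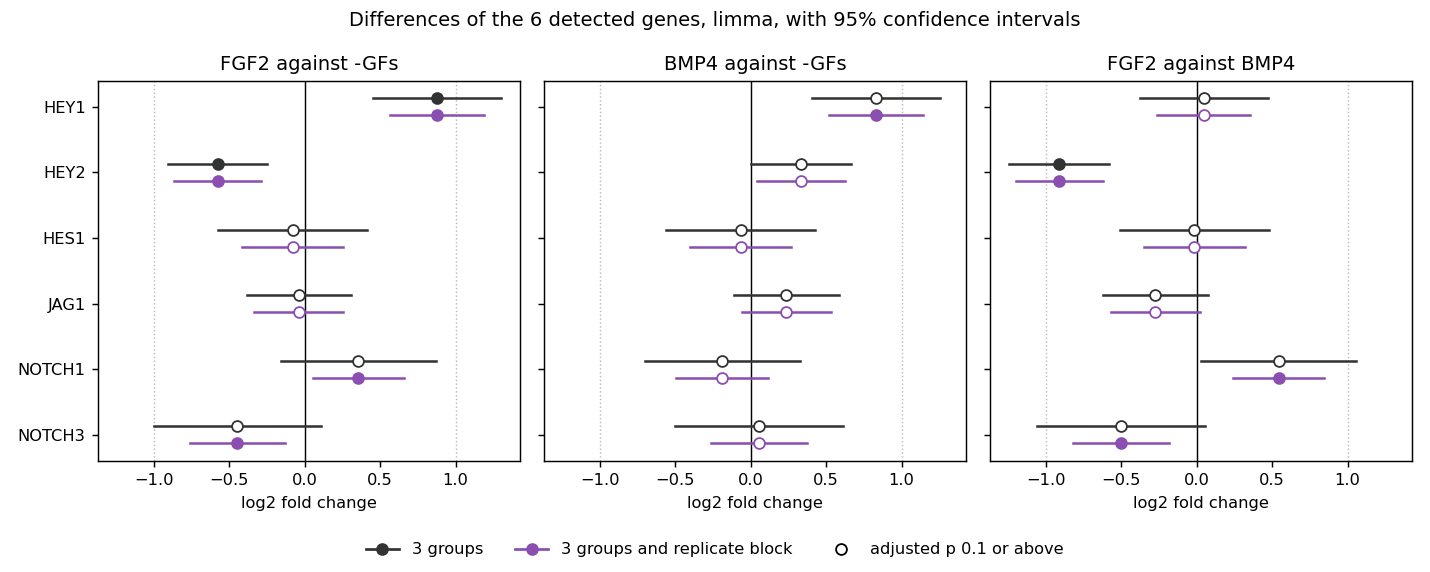
Log2 fold changes (horizontal axis) of the 6 tested genes (vertical axis) in 3 comparisons, with 95% confidence intervals from limma, in black for the model with 3 groups and in purple for the model with the replicate block; filled points have an adjusted p under 0.1 and dotted lines mark a doubling or halving. HEY1 lies at 0.88 and 0.83 in the comparisons with -GFs, and HEY2 lies left of 0 with FGF2 and furthest left, at -0.91, against BMP4. HEY2 was detected on neither FGF2 array, and its points in the comparisons with FGF2 are a description.

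Counted over the 6 tested genes, the adjusted p was under 0.1 for 2 with FGF2 against -GFs (11.8% of all tested genes), 0 with BMP4 against -GFs (0.00842%) and 1 for FGF2 against BMP4 (9.06%). With the replicate block these counts were 4 (37.7%), 1 (0.219%) and 3 (34.2%), the additional genes being NOTCH1 and NOTCH3 in both comparisons with FGF2 and HEY1 with BMP4. The groups did not overlap for 3 genes with FGF2 against -GFs (53.7% of all genes), for 3 with BMP4 against -GFs (24.0%) and for 4 in FGF2 against BMP4 (52.8%). The median log2 fold change of the 6 genes was -0.06 with FGF2, 0.15 with BMP4 and -0.14 for FGF2 against BMP4, beside -0.02, 0.00 and -0.03 over all genes tested. In absolute size the medians were 0.40, 0.21 and 0.39, beside 0.24, 0.11 and 0.23. At limma's unadjusted p under 0.05 the count was 2 of 6 in each comparison, HEY1 and HEY2 with FGF2 and with BMP4 against -GFs, and HEY2 and NOTCH1 in FGF2 against BMP4, beside 23.3%, 1.81% and 21.3% of all tested genes in the same order. Every count of a comparison with FGF2 includes HEY2. As HEY2 was at background on both FGF2 arrays and passed the filter through -GFs and BMP4, its place in those counts is a description.

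The other genes of the pathway were taken from a list by role. Of 66 genes 63 were on the array and 45 were tested. With FGF2, 2 were higher and 5 lower than in -GFs at an adjusted p under 0.1 (4 and 11 with the replicate block), beside 11.8% of all tested genes in both directions (37.7% with the block). With BMP4 there were 0 in either direction with or without the block, and 1 of 45 had an unadjusted p under 0.05, beside 1.81% of all genes. In FGF2 against BMP4 1 was higher and 2 were lower (3 and 11 with the block), beside 9.06% of all genes (34.2% with the block). The median log2 fold change of the 45 was -0.14 with FGF2, -0.03 with BMP4 and -0.11 for FGF2 against BMP4.

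**Figure D3:**
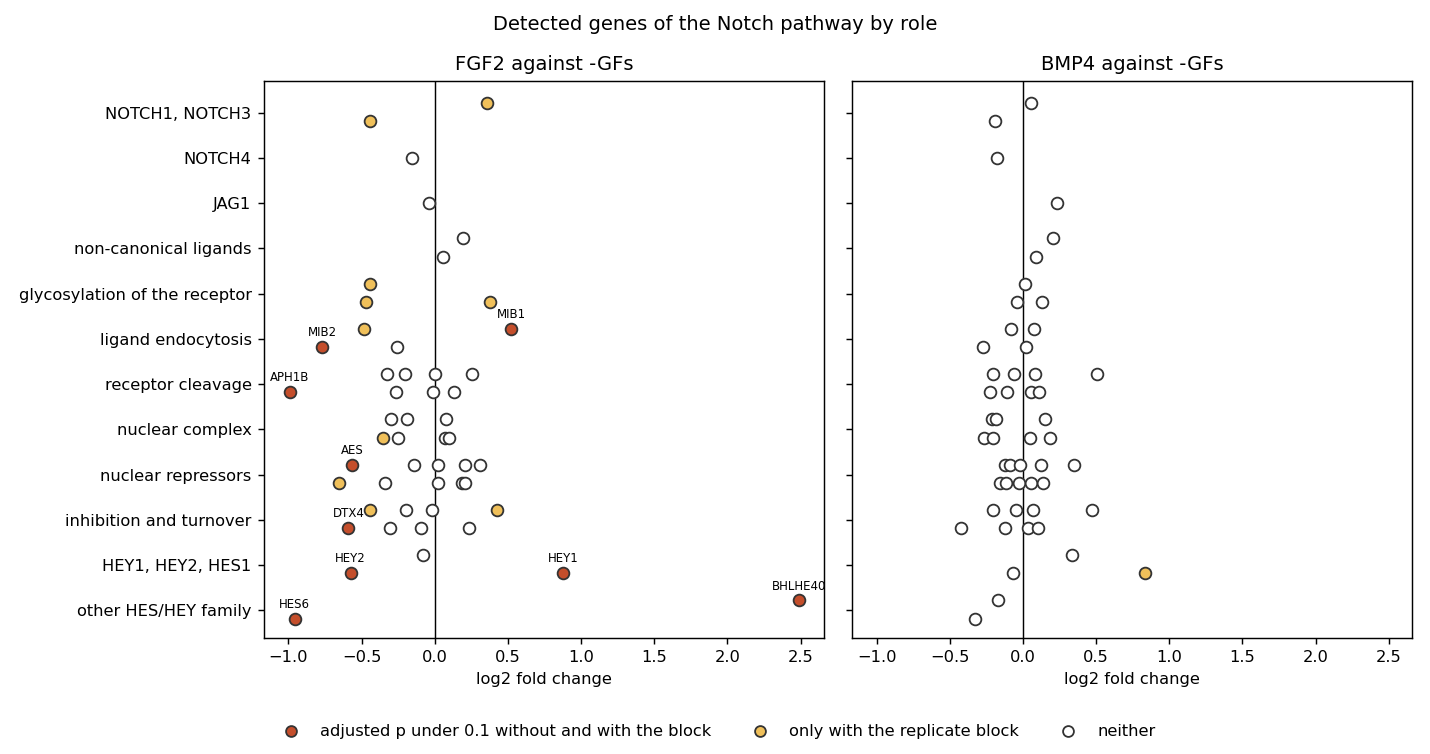
Log2 fold changes (horizontal axis) of the tested Notch pathway genes in FGF2 and BMP4 against -GFs, grouped by role (vertical axis); each point is 1 gene, red with an adjusted p under 0.1 with and without the replicate block, yellow with the block alone, and red points carry the gene's current symbol. With FGF2 the points reach from -0.99 (APH1B) to 2.49 (BHLHE40), and with BMP4 no red point is present and HEY1 is the single yellow one. MIB1 was detected with FGF2 alone, and HEY2 and NEURL1B on neither FGF2 array, so their points with FGF2 are descriptions.

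Of the 8 other HES/HEY family genes, 2 were tested. Both had an adjusted p under 0.1 with FGF2 against -GFs (11.8% of all tested genes), in opposite directions. BHLHE40, a repressor of the wider family that belongs to the cellular clock and answers to growth factors (BHLHB2 on the array), read 9.03 and 9.16 in -GFs, 11.60 and 11.56 with FGF2, and 8.63 and 9.21 with BMP4. It rose with FGF2 by 2.49 on the log2 scale (SE 0.21, limma adjusted p = 0.00461). With the spline normalization it was the single gene of the list that was called by both criteria. It was 2.66 higher with FGF2 than with BMP4 (limma adjusted p = 0.00328). The calls held when any 1 of the 6 arrays was left out.

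HES6, which counteracts HES1 and is known to favour neuron and muscle differentiation, read 10.66 and 10.44 in -GFs, 9.68 and 9.51 with FGF2, and 10.36 and 10.09 with BMP4. The FGF2 arrays lay below the other 4. HES6 fell with FGF2 by 0.96 (SE 0.17, limma adjusted p = 0.0283), and its other 2 detected probes gave log2 fold changes of -0.57 and -0.59. The call did not hold without -GFs replicate 1 or either FGF2 array, with an adjusted p up to 0.219 over the arrays left out. Against BMP4 the log2 fold change was -0.63 (limma adjusted p = 0.0966), and the call was lost whichever of the 6 arrays was left out (adjusted p 0.105 to 0.417).

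MIB1 and MIB2 are the Mind bomb ubiquitin ligases, which drive the endocytosis of bound ligands in the signal-sending cell. MIB2 read 10.52 and 10.91 in -GFs, 9.83 and 10.07 with FGF2, and 10.60 and 10.99 with BMP4. It fell by 0.77 (SE 0.21, limma adjusted p = 0.0858) and was lower by 0.85 with FGF2 than with BMP4 (log2 fold change -0.85, adjusted p = 0.0758). MIB1 was detected on the 2 FGF2 arrays alone and entered the tests through them, so its place among the genes counted is a description. It read 7.41 and 7.45 in -GFs, 7.83 and 8.07 with FGF2, and 7.48 and 7.42 with BMP4, and its level with FGF2 was at least 1.28-fold that in -GFs and at least 1.29-fold that with BMP4.

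APH1B, a subunit of the gamma-secretase that releases the intracellular part of the receptor, was 9.67 and 9.15 in -GFs, 8.70 and 8.14 with FGF2, and 9.39 and 8.97 with BMP4. It fell with FGF2 by 0.99 (SE 0.27, limma adjusted p = 0.0849, and 3.18e-05 with the replicate block), by 0.97 and 1.02 in the 2 replicates. It was the single one of 8 tested genes of receptor cleavage that passed. NCSTN, another subunit of the enzyme, had a log2 fold change of -0.20, and 0.02 with a second detected probe.

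The corepressor AES fell by 0.57 (SE 0.14, limma adjusted p = 0.0628), and a second probe gave -0.40. DTX4, of the Deltex ligases that bind the receptor's intracellular part, fell by 0.59 (SE 0.16, adjusted p = 0.0853). The calls of MIB2 and APH1B were lost without any single array of -GFs or FGF2 (limma adjusted p up to 0.349 and 0.382), that of MIB2 against BMP4 without any single array of FGF2 or BMP4 (up to 0.334), and those of AES and DTX4 whichever of the 6 arrays was left out (up to 0.308 and 0.341).

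With the replicate block alone, further genes passed with FGF2. Those with lower values were the glycosyltransferases POFUT1 (log2 fold change -0.47, blocked limma adjusted p = 0.0186) and POGLUT1 (-0.44, 0.0247), which put the first sugars on the receptor, the coactivator KAT2B (-0.35, 0.0602), the corepressor TLE2 (-0.65, 0.00255) and the secreted protein EGFL7 (-0.45, 0.0377). Those with higher values were the fringe enzyme RFNG (0.38, 0.0511) and FBXW7 (0.43, 0.0612), which marks the active receptor for degradation. The ligand ubiquitin ligase NEURL1B is counted among the lower genes too, but it was not above background on either FGF2 array and passed the filter through -GFs alone, where its level was at least 1.13-fold higher. POGLUT1 and NEURL1B stand on the array under the older names KTELC1 and C230078M08RIK. With neqc and the block, POGLUT1, EGFL7 and FBXW7 did not pass (adjusted p = 0.109, 0.101 and 0.104). In FGF2 against BMP4 the block alone added TLE3 (0.46, blocked limma adjusted p = 0.0188) and, with the bound given above, MIB1 on the higher side, and ADAM17 (-0.38, 0.0645), APH1B (-0.76, 0.000475), TLE4 (-0.50, 0.0211), AES (-0.45, 0.0220) and NEDD4 (-0.37, 0.0720) on the lower side, beside POFUT1, POGLUT1, TLE2 and EGFL7. Of these, AES, NEDD4, ADAM17 and POGLUT1 did not pass with neqc and the block (adjusted p = 0.101, 0.174, 0.140 and 0.111). A second detected probe of ADAM17 gave -0.11 in FGF2 against BMP4 and that of EGFL7 -0.01, whereas those of AES, TLE2 and POFUT1 gave -0.44, -0.70 and -0.28. With FGF2 against -GFs the second EGFL7 probe gave -0.23.

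NOTCH4, the fourth receptor, known from endothelium, was the single detected gene among the other receptor and canonical ligands, on all 6 arrays with 1 of its 2 probes. It read 9.34 and 9.28 in -GFs, 9.18 and 9.13 with FGF2, and 9.20 and 9.06 with BMP4, with log2 fold changes of -0.16 and -0.18 (limma adjusted p = 0.566 and 0.999). DLL3 and DLL4 did not pass the filter, nor did RBPJ with any of its 3 probes, the target NRARP, or the fringe genes LFNG and MFNG. The non-canonical ligand DLK1, a marker of preadipocytes, was detected on all 6 arrays at 15.78 to 15.96, near the brightest signal that the arrays hold, so that differences between groups could be compressed and none is given.

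**Figure D4:**
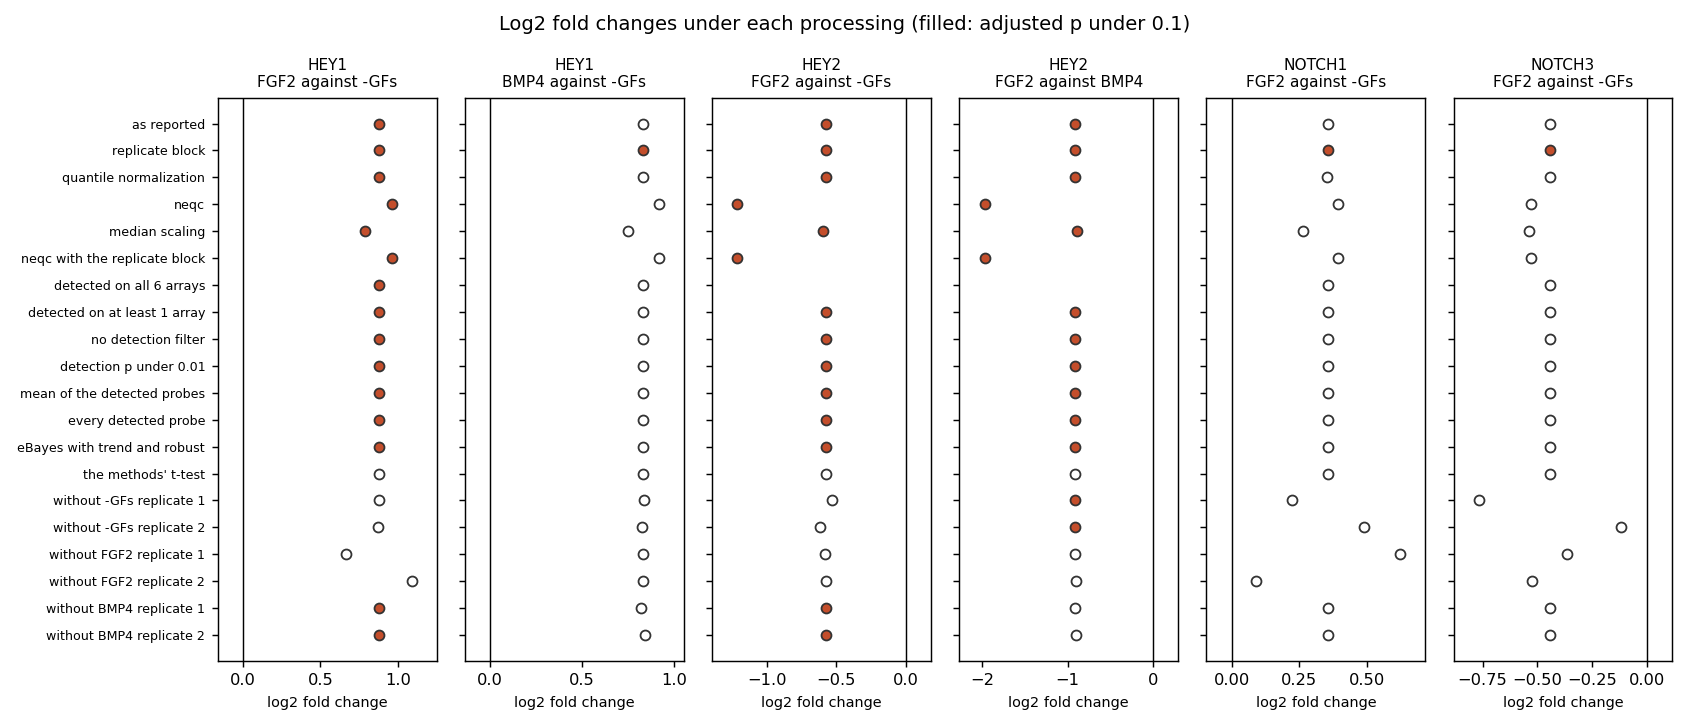
Log2 fold changes (horizontal axes) of HEY1, HEY2, NOTCH1 and NOTCH3 in the named comparisons under the processing as reported and each alternative (vertical axis), filled where the adjusted p is under 0.1. HEY1 lies between 0.67 and 1.09 with FGF2 and between 0.75 and 0.92 with BMP4, HEY2 moves to -1.21 and -1.97 with neqc and has no point where detection on all 6 arrays was required, and NOTCH3 ranges from -0.77 to -0.12.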

How the data were processed

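The values that the authors deposited are non-normalized bead intensities for each probe and array, with a detection p-value, exported with GenomeStudio 2011.01 per the labels. The table also holds 9 columns that carry values on 2045 lines but no heading, and 6 stray lines at its end, and none of these was used.

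The methods name cubic spline normalization, which was rebuilt in R 4.3.3 (452 quantiles, mapped onto the mean of the 6 arrays), followed by log2. A gene was represented by its brightest of the 16111 probes that passed the detection filter. limma 3.58.1 (lmFit, eBayes) was fitted on all 6 arrays with 3 group means, which leaves 3 residual degrees of freedom, or 2 where the replicate number was added as a block. The code was checked on simulated data. The precision is limited by 2 arrays per group, for which an exact permutation test cannot go below p = 0.333.

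By the labels a replicate number marks the wells of 1 biological replicate, so that the numbers pair the arrays, and arrays of one number deviated together (correlations 0.602, 0.741 and 0.579 across genes). Where neither array of a group detected a probe, the lowest detected signal of each array served as its bound. Names are those of the array. Of 30854, 21742 equal a RefSeq symbol or a synonym of 1 gene.

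All members were named, pathway genes by an adjusted p under 0.1 with or without the block or as the single detected gene of a role, and the 3 genes most like the member with the largest difference. DLL3, DLL4, RBPJ, NRARP, LFNG, MFNG, HES5, DLK1 and NCSTN were named outside this rule after their values were seen. The members and lists were chosen with earlier results of these data known.

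Alternatives were other normalizations, detection filters, probe rules and variance models, the methods' t-test, the block and leaving out each array.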

Additional observations from a re-analysis of the deposited data

How the results depend on the processing

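With both criteria, 0 of the Notch genes were called in each comparison. With neqc, and with neqc and the replicate block, 1 gene (HEY2) was called for FGF2 against -GFs and 1 for FGF2 against BMP4. By an adjusted p under 0.1 whatever the fold, 2 genes passed for FGF2 against -GFs and 1 for FGF2 against BMP4. With the replicate block as well, an alternative added after seeing the data, 4 passed for FGF2 against -GFs, 1 for BMP4 against -GFs and 3 for FGF2 against BMP4. Under the other alternatives, and when any array was left out (lowest 0, highest 0), the count by both criteria was 0. The block gave none of the Notch genes a call by both criteria that it did not have without it. It changed the other results only as given beside them. In the pathway list, neqc with the block called further genes beside BHLHE40 by both criteria. Against -GFs these were HES6 (log2 fold change -1.10), APH1B (-1.40) and DTX4 (-1.26) and, as descriptions, MIB1 (1.26) and NEURL1B (-1.12). For FGF2 against BMP4 they were APH1B (-1.11), TLE3 (1.05) and, as a description, MIB1 (1.21).

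Among single genes, HEY1 kept its direction under all 19 alternatives with FGF2 (log2 fold change 0.67 to 1.09, adjusted p under 0.1 in 14) and with BMP4 (0.75 to 0.92, passing in 1). HEY2 kept its direction under the 18 that could test it (-1.21 to -0.53 against -GFs and -1.97 to -0.89 against BMP4, passing in 13 each), and was not tested where detection on all 6 arrays was required. HEY2 was undetected on both FGF2 arrays, so these passes and its calls with neqc are descriptions. NOTCH1 ranged from 0.09 to 0.62 and NOTCH3 from -0.77 to -0.12 with FGF2. HES1 changed sign in 2 of 19. With the methods' t-test and Benjamini-Hochberg adjustment 0 genes passed, and HEY1 and HEY2 had adjusted p values of 0.338 and 0.241 for FGF2 against -GFs. The cause of these shifts was not tested.

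HEY2, JAG1, MIB1 and NEURL1B lay near the lowest detected signal (log2 7.56 to 7.62), where a fold change can understate a difference, which was not tested here. Other pathway genes lay near it too. Among them were DTX4 (7.66 and 7.64) and KAT2B (7.66 and 7.77) with FGF2, and TLE3 (7.66 and 7.59) with BMP4. With neqc and the block the log2 fold changes were -1.26 for DTX4 and -0.79 for KAT2B with FGF2 against -GFs. That of TLE3 in FGF2 against BMP4 was 1.05. Against a group that did not detect HEY2, MIB1 or NEURL1B, only the bounds given above hold. For HEYL, JAG2, NOTCH2 and DLL1 a difference was not detectable. With 2 arrays per group the 95% intervals of the tested genes were 0.659 to 1.11 wide on the log2 scale.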
